A study of Mus musculus with 8 samples.

Results

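The genes described here encode 9 subunits and enzymes of the citric acid cycle: Cs, Idh3a, Idh3b, Idh3g, Ogdh, Suclg1, Sucla2, Fh1 and Mdh2. They were taken by name from a count table of 22430 genes, with earlier results of these data known, and compared between ages. The samples were brains of male C57Bl/6JRj mice, with 4 animals aged 6 months (6m, young adult) and 4 aged 24 months (24m, aged), and no treatment or transgene named for either age. Polyadenylated RNA of a brain hemisphere was sequenced in each animal, under a label that reads whole brain. As a model of ageing the groups cover a single sex, a single inbred substrain and no age between these ages.

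In the citric acid cycle, which runs in the mitochondrial matrix, the acetyl group delivered by pyruvate dehydrogenase is joined to oxaloacetate and oxidised to carbon dioxide. The electrons pass to NADH and FADH2, which feed the respiratory chain, and intermediates leave the cycle for amino acids, including the transmitters glutamate and GABA in brain. Citrate synthase makes citrate, isocitrate dehydrogenase and the oxoglutarate dehydrogenase complex release carbon dioxide, succinyl-CoA ligase forms a nucleoside triphosphate, and fumarase and malate dehydrogenase regenerate oxaloacetate. All enzymes of the set are nuclear encoded and imported into mitochondria.

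All 9 genes passed the filter on low counts, with 4655 counts or more in every library. Expression of 3 of the 9 genes, Cs, Idh3a and Ogdh, rose with age by 1.56-fold to 1.61-fold, and expression of Suclg1 fell to 0.61 of its 6m level. A gene was called at an edgeR adjusted p of at most 0.05 with a log2 fold change, 24m over 6m (log2FC), of at least 0.58 in either direction. Among all 16730 tested genes 25.3% were called higher and 18.3% were called lower, so that 3 and 1 of 9 lie near these background shares and are no result about the set. Idh3b, Sucla2 and Mdh2 passed the adjusted p without reaching the fold change, which brings the count at adjusted p alone to 3 higher and 4 lower. The corresponding shares of all tested genes were 32.7% higher and 29.9% lower. The libraries of the ages did not overlap for 8 of the 9 genes, against 55.2% of all tested genes. The median log2FC of the set was -0.20, beside -0.003 over all tested genes.

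Libraries held 63460940 to 103462414 counts, and 24m replicate 1 was the deepest and stood apart from the other aged libraries. Its chi-square per degree of freedom against them was 179 to 417, compared with 13 to 61.2 among the others of that age and 8.18 to 48.3 among the 6m libraries. Reads of genes encoded by the mitochondrial genome made up 5.26 to 6.52% of the counts at 6m and 3.18 to 3.69% at 24m. In bulk tissue fewer cells of a type and less RNA per cell cannot be told apart. Levels are given as CPM, counts per 1000000 counts of a library after scaling by trimmed mean of M values (TMM) factors, as mean ± SD with n = 4 animals per age.

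**Figure D1:**
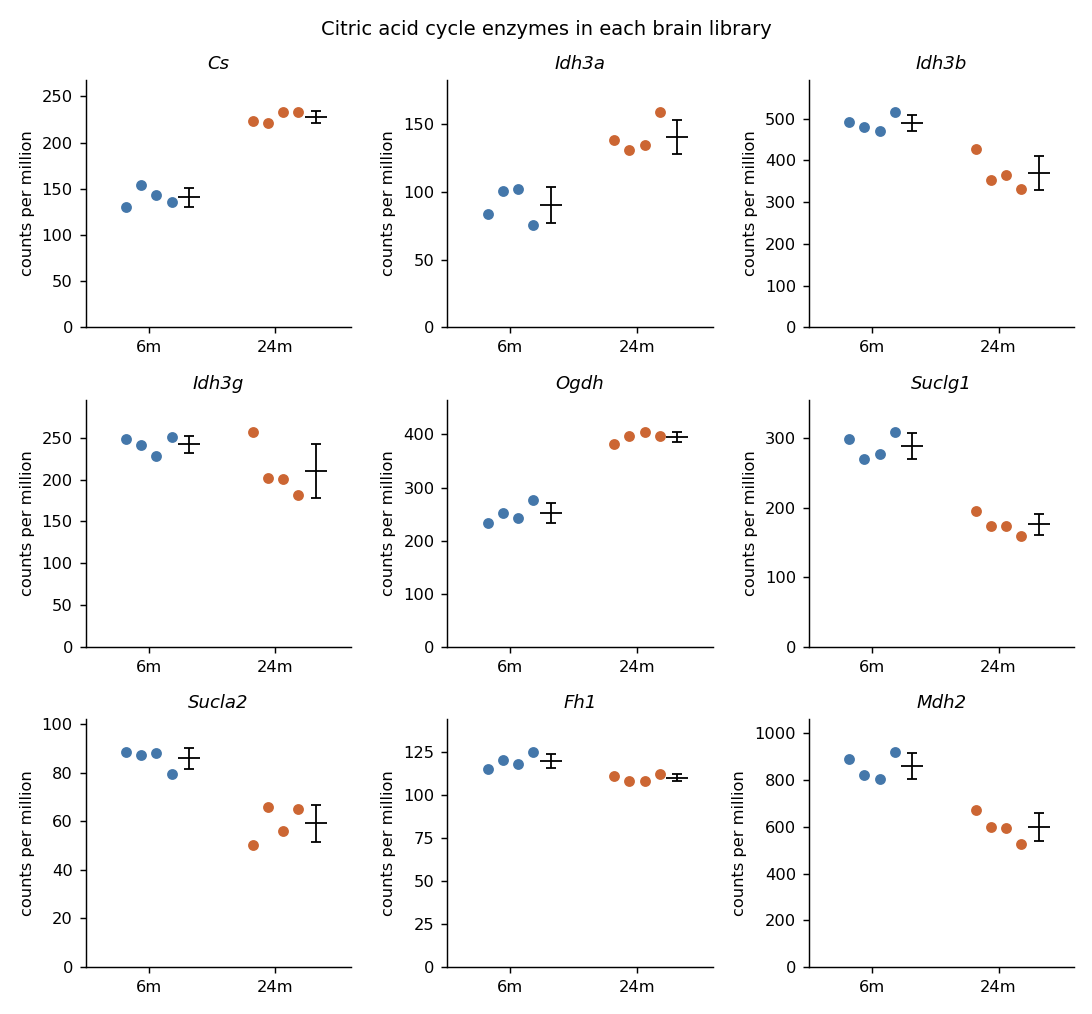
Each panel plots one gene in CPM (TMM scaled, axis from 0), with a point for each of the 4 libraries of 6m (blue) and 24m (orange) in replicate order and the mean ± SD in black. Cs, Idh3a and Ogdh sit higher in every 24m library, Idh3g is the gene whose ages overlap, at 257 CPM in 24m replicate 1, and the other 5 genes sit lower at 24m.

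Cs encodes citrate synthase, which condenses acetyl-CoA with oxaloacetate and opens the cycle. Its level was 130, 154, 143 and 136 CPM in the 6m libraries and 223, 221, 233 and 233 CPM in the 24m libraries. Every aged library lay above every young one, and the aged libraries were the closer together. The mean rose by 61.3%, from 141 ± 10.4 to 227 ± 6.37 CPM (SD, n = 4), a log2FC of 0.69 ± 0.08 (SE; edgeR adjusted p = 0.000109). Cs is the member whose call held in all alternatives, with values between 0.58 after removal of a trend over GC content and 0.91 when libraries were scaled by their totals alone. The gene lies on chr10:128172837-128198363 (GRCm39, plus strand), and its canonical transcript of 2952 bases carries a 3′ untranslated region (3′ UTR) of 1362 bases. A retrocopy, Csl, matches 99.9% of the coding sequence at 92.7% identity and held 76 counts over all 8 libraries together, so reads counted to it are few beside those of Cs.

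NAD-dependent isocitrate dehydrogenase, which turns isocitrate into 2-oxoglutarate, is built from a catalytic alpha subunit (Idh3a) and from beta and gamma subunits (Idh3b, Idh3g) that serve its regulation. The catalytic subunit rose with age and the others did not. Idh3a measured 83.4, 101, 102 and 75.5 CPM at 6m and 138, 131, 135 and 159 CPM at 24m. All aged libraries were above all young ones, with 6m replicate 4 the lowest and 24m replicate 4 the highest. The mean rose from 90.6 ± 13.3 to 141 ± 12.7 CPM, with a log2FC of 0.64 ± 0.12 and an edgeR adjusted p of 0.00123. Without 6m replicate 4 the log2FC was 0.56, without 24m replicate 4 it was 0.57 and with the GC trend removed it was 0.43, each under the fold-change threshold with the adjusted p still passed.

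Idh3b measured 493, 480, 470 and 516 CPM at 6m and 427, 353, 364 and 332 CPM at 24m. The ages did not overlap, and 24m replicate 1 was nearest to the young libraries. The means were 490 ± 19.7 and 369 ± 40.8 CPM, with a log2FC of -0.41 ± 0.09 and an edgeR adjusted p of 0.00409, short of the fold-change threshold. The value was -0.19 on library totals alone, -0.11 after quantile normalization (DESeq2 adjusted p = 0.0568) and 0.04 once the trend over transcript length was removed (edgeR adjusted p = 0.575).

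Idh3g, on the X chromosome, measured 248, 241, 228 and 251 CPM at 6m and 257, 202, 201 and 181 CPM at 24m. The highest library of all was an aged one, 24m replicate 1, while the other aged libraries were below every young one. The means were 242 ± 10.1 and 210 ± 32.7 CPM, a log2FC of -0.20 ± 0.11 with a 95% interval of -0.45 to 0.04 (edgeR adjusted p = 0.128). Without 24m replicate 1 the log2FC was -0.30 (edgeR adjusted p = 0.00228), and with the length trend removed it was 0.26 (edgeR adjusted p = 0.00495).

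The subunit genes lie apart in the genome, Idh3a on chr9:54493575-54514730 (plus strand), Idh3b on chr2:130121227-130126467 (minus strand) and Idh3g on chrX:72820644-72830719 (minus strand) of GRCm39. Their transcripts differ in length, with 2586 bases for Idh3a, of which 1296 are 3′ UTR, 1616 bases for Idh3b and 1575 bases for Idh3g. Idh3a shares 1875 exonic bases with Acsbg1, an acyl-CoA synthetase gene on the other strand, whose log2FC was 0.13 (edgeR adjusted p = 0.247). Idh3g shares 1437 exonic bases with Srpk3, a kinase gene, and 301 bases with Ssr4, a subunit of the translocon-associated complex of the endoplasmic reticulum, both on the other strand. Srpk3 and Ssr4 fell with age, by 1.12 and 0.89 on the log2 scale (edgeR adjusted p = 0.000881 and 0.00506). The libraries were directional, but whether strand was used in counting is not given in the sources used here, so reads in these shared bases cannot be assigned.

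Ogdh encodes the E1 subunit of the 2-oxoglutarate dehydrogenase complex, the thiamine-dependent step that releases carbon dioxide from 2-oxoglutarate. Its libraries held 234, 253, 243 and 277 CPM at 6m and 383, 397, 405 and 397 CPM at 24m. The ages were far apart for their spread, and the aged libraries lay within a narrow range. The mean rose by 57.2%, from 252 ± 18.2 to 396 ± 8.88 CPM, a log2FC of 0.65 ± 0.08 (edgeR adjusted p = 0.000149). The gene has the longest canonical transcript of the set, 6800 bases with 3559 bases of 3′ UTR. Removal of the length trend took the log2FC to 0.00 (edgeR adjusted p = 0.99), removal of length and GC trends to -0.04, and removal of the GC trend alone to 0.55.

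Ogdh, at chr11:6241551-6309233 of GRCm39 (plus strand), was also the sole member with a match among 3 motifs searched in promoters. The motifs were AAGGTCA, recognised by estrogen-related receptors, GCATGCGC, the core of the motif of nuclear respiratory factor 1, and CCGGAAGT, the GABP site of the ETS family. They were searched on both strands in RefSeq promoters of GRCm38.p6, which run from 250 bases before to 50 bases after a start. Promoters were listed for 8 of the 9 members, Idh3a being the one without an entry. Ogdh had 6 listed promoters and each of the others 1, so more of its sequence was searched and its match is only a description. The motifs occurred in 5.38%, 3.05% and 4.31% of the 27025 genes with a promoter. The stretches of 30 bases around the Ogdh matches, which belong to separate starts, are shown with the match in capitals as its reverse complement.
Ogdh, chr11:6292154-6292183, plus strand, with TGACCTT: ggacacggcgcTGACCTTggtgcctgcggc
Ogdh, chr11:6292532-6292561, plus strand, with GCGCATGC: ctaggtgttgtGCGCATGCgtaactcaact
The first lies in 1 of the 6 listed Ogdh promoters and the second is shared by 2 overlapping ones. A match describes the letters of the window, and the counts do not separate the starts.

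Succinyl-CoA ligase forms succinate and a nucleoside triphosphate, and joins a common alpha subunit (Suclg1) to a beta subunit specific for ADP (Sucla2) or for GDP (Suclg2). The alpha subunit fell with age and the ADP-specific beta subunit was lower without reaching the fold-change threshold. Suclg1 measured 299, 270, 277 and 309 CPM at 6m and 196, 174, 174 and 160 CPM at 24m. No aged library came near the lowest young one. The mean fell by 39%, from 289 ± 18.4 to 176 ± 14.8 CPM, a log2FC of -0.71 ± 0.09 (edgeR adjusted p = 0.000165). The log2FC was -0.50 on library totals alone, -0.56 after quantile normalization and -0.22 with the length trend removed, which ended the call while the adjusted p stayed passed (0.00014 and 0.0128 in edgeR, 2.58e-22 in DESeq2).

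Sucla2 measured 88.8, 87.3, 88.4 and 79.5 CPM at 6m and 50.2, 65.9, 55.9 and 65.3 CPM at 24m. The ages did not overlap, 6m replicate 4 was below its group and 24m replicate 1 was the lowest of all. The means were 86 ± 4.37 and 59.3 ± 7.58 CPM, a log2FC of -0.54 ± 0.10 (edgeR adjusted p = 0.00149). It passed the fold-change threshold with the GC trend removed (-0.82), with both trends removed (-0.65), without 24m replicate 2 (-0.59) or without 24m replicate 4 (-0.58), and on library totals alone it was -0.31 (edgeR adjusted p = 0.0549). Suclg1 lies on chr6:73225365-73253894 and Sucla2 on chr14:73762759-73834335 (GRCm39, plus strands). Suclg1 has a transcript of 1519 bases at 50.16% GC, and Sucla2 a transcript of 2982 bases at 42.56% GC, the lowest GC content of the set.

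Fh1 encodes fumarase, which hydrates fumarate to malate. It had the smallest difference of the set, with 115, 120, 118 and 125 CPM at 6m and 111, 108, 108 and 112 CPM at 24m. The aged libraries were all below the young ones, by a small margin. The means were 119 ± 4.27 and 110 ± 2.1 CPM, a log2FC of -0.12 ± 0.07 with a 95% interval of -0.27 to 0.03 (edgeR adjusted p = 0.134). DESeq2 gave a value of -0.13 with an adjusted p of 0.03. The transcript is long (5290 bases, of which 3700 are 3′ UTR) and of low GC content (44.1%), and removal of the length trend gave -0.64 (edgeR adjusted p = 0.000413), of the GC trend -0.38 and of both -0.71, whereas library totals alone gave 0.10. The gene lies on chr1:175425290-175453205 of GRCm39 (minus strand).

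Mdh2 encodes the mitochondrial malate dehydrogenase, which restores oxaloacetate and also serves the malate-aspartate shuttle. It was the most abundant transcript of the set, with 891, 821, 805 and 922 CPM at 6m and 674, 601, 594 and 526 CPM at 24m. Each aged library was below each young one. The means were 860 ± 55.7 and 599 ± 60.2 CPM, a log2FC of -0.52 ± 0.10 (edgeR adjusted p = 0.00141). The value was -0.31 on library totals alone, -0.15 after quantile normalization (DESeq2 adjusted p = 0.0134), -0.02 with the length trend removed (edgeR adjusted p = 0.78) and 0.03 with both trends removed. Mdh2, on chr5:135807292-135820882 (GRCm39, plus strand), has the shortest transcript of the set (1502 bases) and the highest GC content (55.53%). Stretches of chromosome 4 resemble its coding sequence at 81.9 to 87% identity and are annotated as processed pseudogenes.

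**Figure D2:**
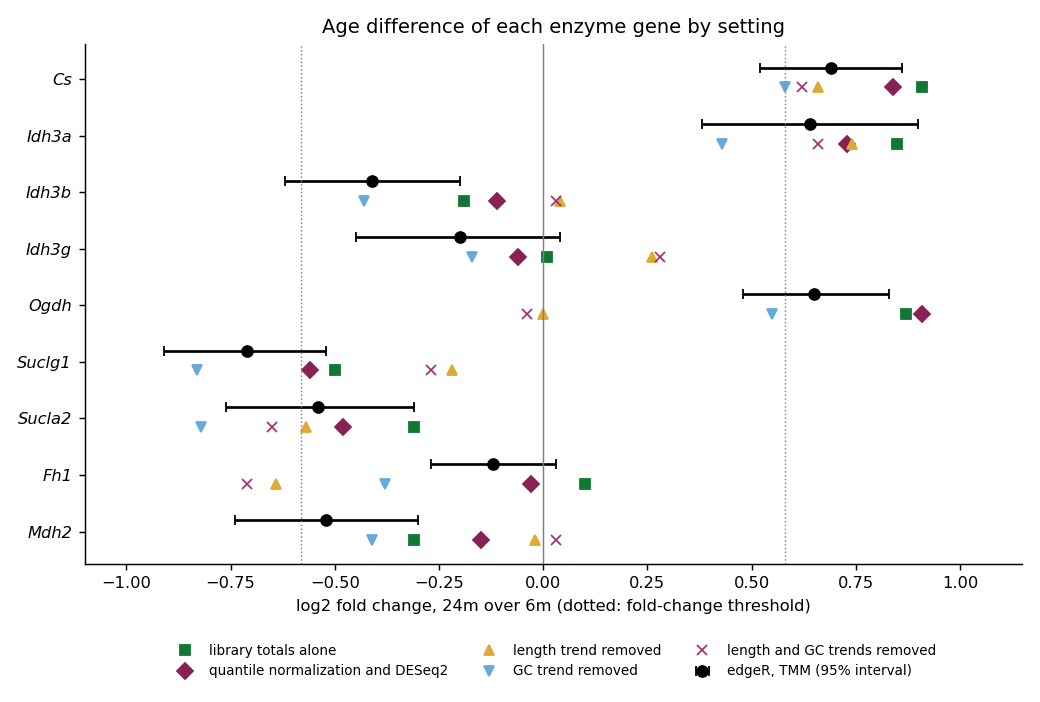
The horizontal axis is the log2FC of 24m over 6m, with the edgeR estimate and its 95% interval in black and the estimates under 5 other settings as coloured symbols below it. Cs stays between 0.58 and 0.91, Ogdh falls to 0.00 when the length trend is removed, and Fh1 moves from -0.12 to -0.71 once length and GC trends are removed.

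Removing these trends treats a common change of long against short, or of GC-rich against GC-poor, transcripts as technical, which was not tested. With both trends removed Cs (0.62), Idh3a (0.66) and Sucla2 (-0.65) were past the fold-change threshold with an adjusted p that passed, and so was Fh1 (-0.71), so 2 members were called higher and 2 lower. Scaling by library totals alone shifted the median log2FC of all genes to 0.21, and 75.7% of its calls were higher, against 58.1% with TMM factors and 47.9% after quantile normalization.

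Per kilobase of canonical transcript the members spanned a wide range of levels, in CPM per kilobase. At 6m the order was Mdh2 (572), Idh3b (303), Suclg1 (190), Idh3g (154), Cs (47.7), Ogdh (37), Idh3a (35), Sucla2 (28.8) and Fh1 (22.6). The neighbours Ogdh (34.5 to 40.7) and Idh3a (29.2 to 39.5) overlapped between libraries, and so did Idh3a and Sucla2 (26.7 to 29.8). At 24m the order was Mdh2 (399), Idh3b (228), Idh3g (133), Suclg1 (116), Cs (77), Ogdh (58.2), Idh3a (54.5), Fh1 (20.7) and Sucla2 (19.9). Here Idh3g (115 to 163) overlapped Suclg1 (105 to 129), Ogdh (56.4 to 59.5) overlapped Idh3a (50.5 to 61.6), and Fh1 (20.3 to 21.2) overlapped Sucla2 (16.9 to 22.1). The levels of the genes that were low in this order and rose (Cs, Ogdh, Idh3a) thus approached those of the abundant ones. Per kilobase of all annotated exons the level of Idh3a at 6m was 11.1 and that of Fh1 11.9, so the order of the lower genes depends on the transcript length used.

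**Figure D3:**
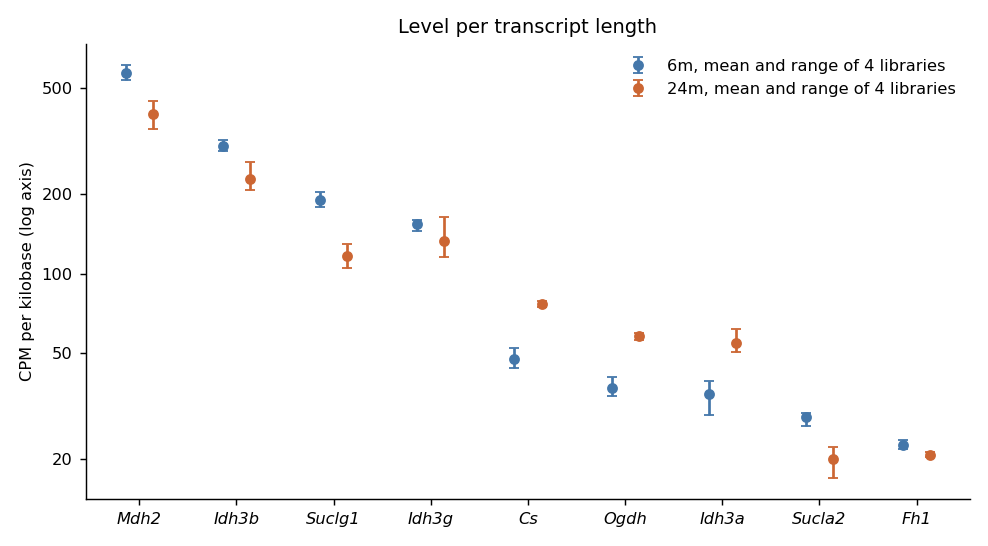
The vertical axis is the level in CPM per kilobase of canonical transcript on a log scale, with the mean (point) and range (bar) of the 4 libraries of 6m (blue) and 24m (orange). Mdh2, at 572 and 399, heads the order at both ages, and Sucla2 and Fh1, at 28.8 and 22.6 at 6m and at 19.9 and 20.7 at 24m, end it.

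The summed level of the 9 genes was 2583, 2527, 2475 and 2690 CPM at 6m and 2459, 2253, 2269 and 2166 CPM at 24m. Every aged library lay below every young one, 24m replicate 1 closest. The sum went from 2569 ± 91.8 to 2287 ± 123 CPM, a log2 ratio of -0.17 (exact permutation test over 70 assignments, two-sided p = 0.0286, the smallest these libraries allow). On library totals alone the log2 ratio was 0.05 (exact p = 0.0286), and the mean of log2 CPM differed by -0.06 (exact p = 0.0857), so no direction of the sum holds across scalings. Shares of the sum are taken within a library and do not depend on its scaling factor. Mdh2 went from 33.4% ± 1.09 to 26.1% ± 1.32 of the members' CPM and Suclg1 from 11.2% ± 0.405 to 7.69% ± 0.236. Ogdh went from 9.8% ± 0.517 to 17.3% ± 1.21 and Cs from 5.5% ± 0.535 to 9.97% ± 0.718. For each of these 4 genes the ages did not overlap. Shares were not recomputed without the length trend, and with it removed the log2FC of Ogdh was 0.00, of Mdh2 -0.02, of Suclg1 -0.22 and of Cs 0.66, which leaves Ogdh and Mdh2 close together.

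Ratios of genes within a library do not depend on the scaling factor, and 13 pairs of subunits, isoenzymes or neighbouring enzymes were compared. In 10 of the 13 pairs the ages did not overlap, each with a two-sided exact permutation p of 0.0286 (0.0371 adjusted over the 13 pairs). That is the smallest p possible with 4 libraries per age. No background over gene pairs was computed, the 55.2% above being for single genes. The pairs have genes in common, so their count is a description. Idh3a was higher and Idh3b and Idh2 lower at 24m, each without overlap, so those ratios had to separate. The largest rises were those of Idh3a. Its log2 ratio to Idh3b, per kilobase, was -3.24, -2.92, -2.88 and -3.45 at 6m and -2.31, -2.11, -2.10 and -1.74 at 24m. Every aged library lay above every young one, and the level of Idh3a went from 0.115 to 0.239 of that of Idh3b, a difference of 1.06 in the log2 ratio. Its ratio to Idh3g went from 0.226 to 0.411, a difference of 0.86. Its ratio to Idh2, which encodes the mitochondrial NADP-dependent isocitrate dehydrogenase, went from 0.658 to 1.48, a difference of 1.17. With length and GC trends removed these differences were 0.63, 0.39 and 0.74, and the ages still did not overlap. Idh3b relative to Idh3g went from 1.97 to 1.72, a log2 difference of -0.20 and -0.24 with both trends removed.

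Ogdh rose against Ogdhl, which encodes a related dehydrogenase abundant in brain, from 0.686 to 1.13 (log2 difference 0.71, and 0.47 with both trends removed). Against its own partners in the complex the ages of Ogdh overlapped, each time through 6m replicate 4. The log2 difference was 0.10 against Dlst, the E2 subunit (exact permutation p = 0.143), and 0.32 against Dld, the shared E3 subunit (exact permutation p = 0.0857). Without that library the differences were 0.13 and 0.46, and the ages did not overlap for either partner. With the GC trend removed the difference against Dld was 0.50 and the ages no longer overlapped (exact permutation p = 0.0286). With the length trend removed the ratio to Dlst turned to -0.43 and the ages no longer overlapped.

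Both Suclg1 and Sucla2 fell relative to Suclg2, the GDP-specific beta subunit. Suclg1 per kilobase went from 49.2 to 25.4 times Suclg2 and Sucla2 from 7.47 to 4.34 times Suclg2, log2 differences of -0.96 and -0.78. With the length trend removed the first was -0.30 and its ages overlapped (exact permutation p = 0.0571), while the second was -0.66 without overlap. Suclg1 relative to Sucla2 overlapped between ages, at 6.59 and 5.85 (log2 difference -0.17, exact permutation p = 0.314). With the length trend removed its difference was 0.36 and the ages separated in the other direction (exact permutation p = 0.0286). Mdh2 relative to Mdh1, the cytosolic malate dehydrogenase of the same shuttle, went from 1.13 to 0.983 (log2 difference -0.20), and with the length or GC trend removed the difference was 0.18 or 0.17 (exact permutation p = 0.0286 and 0.171). Fh1 relative to Mdh2 went from 0.0395 to 0.0522 (log2 difference 0.40), and with the length trend removed the difference was -0.62, with the ages separated in the other direction (exact permutation p = 0.0286).

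**Figure D4:**
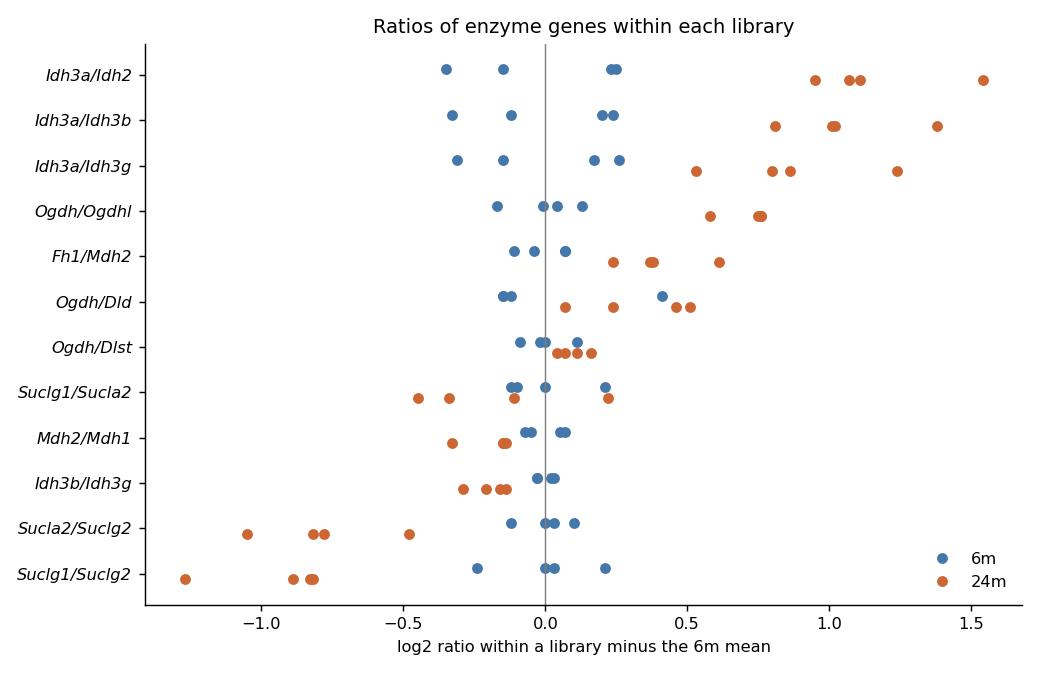
The horizontal axis is the log2 ratio of 2 genes per kilobase in a library, minus the mean of the 6m libraries, for the pairs named in the text, with a point for each of the 4 libraries of 6m (blue) and 24m (orange). Idh3a against Idh2, Idh3b or Idh3g lies farthest to the right at 24m, with mean differences of 1.17, 1.06 and 0.86, and Suclg1 and Sucla2 against Suclg2 farthest to the left, at -0.96 and -0.78.

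Of the 8 other cycle enzymes none was called higher and 1 was called lower. Sdhb, the iron-sulphur subunit of succinate dehydrogenase, fell from 436 ± 25.4 to 269 ± 78.6 CPM (log2FC -0.70, edgeR adjusted p = 0.00615). The flavoprotein subunit Sdha was at 542 ± 29.4 and 551 ± 41.2 CPM (log2FC 0.02), and the membrane anchors Sdhc and Sdhd had log2FC values of -0.33 and -0.26. Dlst had a log2FC of 0.56 (edgeR adjusted p = 0.0002), close under the threshold, Dld of 0.34 (edgeR adjusted p = 0.0428) and Suclg2 of 0.24 (edgeR adjusted p = 0.0713). Whether the subunits of succinate dehydrogenase differ from each other was not tested.

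The 7 lists of related genes held 71 genes, of which 17 were called higher and 4 lower around a median of 0.10, beside 25.3% higher and 18.3% lower over all tested genes. The share called higher is near that background, and the counts of the single lists are given as a description. On library totals alone 23 of the 71 were called higher and none lower, beside 5447 higher and 1747 lower of all 16730 genes. Among the pyruvate dehydrogenase complex and its regulators 6 of 13 were called higher and 1 lower. Pdk4, a kinase that switches the complex off, rose by a log2FC of 1.79 from a low level of 0.764 ± 0.193 CPM, and Mpc2, a subunit of the mitochondrial pyruvate carrier, fell by 0.59. For entry of glutamate, GABA and other substrates, 4 of 12 genes were called higher, led by Abat, the GABA transaminase, at 28.4 ± 5.47 and 128 ± 38.6 CPM (log2FC 2.17, edgeR adjusted p = 7.58e-05). Aldh5a1, which completes the GABA shunt to succinate, had a log2FC of 1.33, and Glud1, glutamate dehydrogenase, one of 0.89.

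Of 11 counterparts in other compartments or with other cofactors 2 were called higher, Dhtkd1 (2-oxoadipate dehydrogenase, 0.75) and Acly (ATP citrate lyase, 0.60). Idh2 and Mdh1 had log2FC values of -0.52 and -0.33 (edgeR adjusted p = 0.0012 and 0.00637), and Ogdhl -0.07. Of 7 carriers Slc25a13, an aspartate-glutamate carrier, was called higher (0.62). Of 8 genes of lipoate and cofactor supply 1 was called higher and none lower, and the median of this list was -0.35. Of 12 regulators of mitochondrial biogenesis 3 were called higher and 2 lower. Ppargc1a, a coactivator of mitochondrial genes, had a log2FC of 1.52 and its relative Ppargc1b one of -0.59, as had the mitochondrial deacetylase Sirt3.

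**Figure D5:**
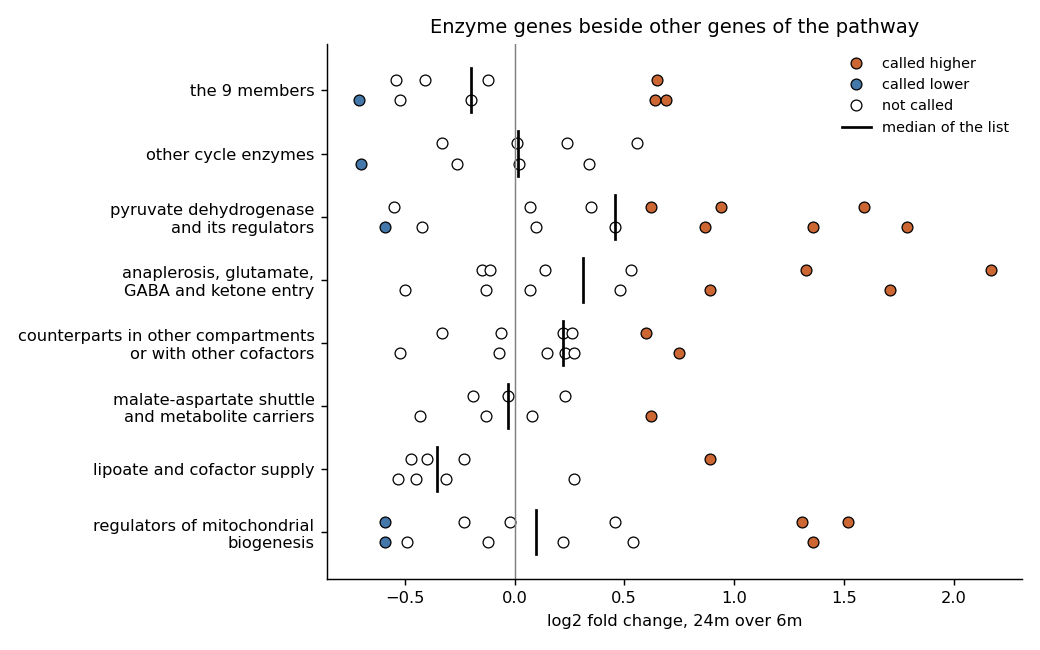
Each point is one gene at its log2FC of 24m over 6m, in a row for the 9 members and for each of 7 lists of related genes, coloured where called higher (orange) or lower (blue), with a black bar at the median. The members' median is -0.20 and the medians of the lists run from -0.35 for lipoate and cofactor supply to 0.46 for pyruvate dehydrogenase and its regulators.

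All markers of the brain cell types passed the filter on low counts, as the tissue label calls for, and several moved with age beside the members. Over all tested genes 25.3% were called higher and 18.3% lower, and the counts of the marker lists are given as a description. Of 10 neuron markers 5 were called higher and 1 lower, with a summed level of 3620 to 4036 CPM at 6m and 4200 to 4479 CPM at 24m. Of 8 astrocyte markers 5 were called higher and 1 lower, with sums of 2892 to 3826 and 2847 to 3843 CPM. Of 8 oligodendrocyte markers 1 was called higher (3426 to 4286 and 3704 to 4282 CPM), and of 8 microglia markers 3 were called higher (426 to 455 and 446 to 591 CPM). Of 6 endothelial markers 1 was called higher and 2 lower (73.3 to 108 and 43.8 to 65.8 CPM), and of 5 choroid plexus markers 2 were called higher (1777 to 3203 and 822 to 2255 CPM). All 5 red blood cell markers were called lower, with sums of 5426 to 7604 and 1242 to 4156 CPM. None of the defining markers was at 0, and the part of cell make-up in the members' values was not tested.

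Of the other genes that overlap or face a member, Nop56, a nucleolar protein gene that shares 12 bases with Idh3b, fell by 0.62 on the log2 scale. Coq10a, which shares 56 exonic bases with Cs on the other strand, had a log2FC of -0.47. Kmo, which shares 188 exonic bases with Fh1 on the other strand, had one of 0.04. Styxl1, which starts 52 bases from Mdh2 on the other strand, had one of -0.44 (edgeR adjusted p = 0.226). Reads in the shared bases cannot be assigned here either. The value of Coq10a thus differed in direction from that of Cs.

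The profile of each member over the 8 libraries was compared with 13521 genes by the root mean square (RMS) difference of centred log2 CPM, as a description. Between members the closest were Idh3b and Mdh2 (0.069) and Cs and Ogdh (0.088), and the farthest apart was Suclg1 from Cs and from Idh3a (0.72 each). The gene most like Mdh2 was Idh2 (0.021), followed by Rtl8a and Lyrm2. Idh3b was closest to Atp6v1e1, a subunit of the vacuolar proton pump (0.018), then to Tomm40, the import channel of the outer mitochondrial membrane, and Esd. Idh3g was closest to Ccndbp1 (0.018), Anapc2 and Ppp5c, and Suclg1 to Odad4 (0.03), Acbd6 and Bmyc. Cs was closest to Clstn1, calsyntenin 1 (0.042), Tox4 and Lrsam1, Ogdh to Plxnb1, a semaphorin receptor (0.039), Ndrg1 and Gatad2a, and Idh3a to Irak4 (0.051), B3gnt2 and Stau2. Sucla2 was closest to Tpr, a nuclear pore protein (0.042), Eed and Zcchc9, and Fh1 to Pcmt1 (0.031), Ociad1 and Mettl2. All profiles share the same libraries, depths and age groups, and no test was made of their likeness.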

How the data were processed

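The deposited table holds counts of reads per gene in 8 libraries, which the authors made from directional, poly(A)-selected libraries with Trim Galore 0.4.11, HISAT2 2.1.0 on GRCm39 and featureCounts, before any normalization. Strand use and multimapping are not given in the sources used here. Of 22430 identifiers 22281 matched GENCODE vM39. Genes that exceeded 5 counts in 4 or more libraries were fitted with edgeR 4.0.16 (R 4.3.3; quasi-likelihood, TMM factors, age as the only term, Benjamini-Hochberg adjustment over 16730 genes), and the fit was tested on simulated data. Alternatives used limma 3.58.1, DESeq2 1.42.0, other scalings, filters and thresholds, length and GC trends (lowess), left-out libraries and a replicate block. Copies were sought with blastn 2.17.0. The members and lists (7 of pathways, 7 of cell markers) were chosen with earlier results of these data known. Named were all members, their pair partners, genes overlapping or facing them, all other cycle enzymes, the called extremes of each list and the 3 nearest profiles; Aldh5a1, Glud1, Acly and Ppargc1b were added after their values were seen, and some genes that the rule names are not reported here. Totals of 63460940 to 103462414 counts leave counting error small beside the spread between animals.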

Additional observations from a re-analysis of the deposited data

Results flagged for a closer look

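Each measure was searched in each age for a library whose gap to the nearest of the others was too large a part of the group's range by Dixon's criterion at 95%, in 46 groups of 4, of which chance alone flags about 1 in 20. The search gave 5 such libraries. Sucla2 in 6m replicate 4 was at 79.5 CPM, below the 87.3 to 88.8 CPM of the other young libraries. The log2 ratio of Ogdh to Dld in the same library was 2.39, where the others were at 1.83 to 1.86. In 24m replicate 4 the log2 ratio of Suclg1 to Suclg2 was 4.35, below the 4.73 to 4.80 of the others, and that of Mdh2 to Mdh1 was -0.16, below 0.02 to 0.03. In 24m replicate 1, the deepest library, the log2 ratio of Ogdh to Ogdhl was 0.04, below 0.21 to 0.22. Without 6m replicate 4 the log2 ratio of Ogdh to Dld differed by 0.46 between ages and that to Dlst by 0.13. For neither ratio did the ages then overlap.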

How the results depend on the processing

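Cs kept its call under all 20 alternatives. The ratios of Idh3a to Idh3b, Idh3g and Idh2 kept direction and separation with the length trend, the GC trend or both removed. Leaving out a library could not undo either, because the ages already did not overlap. The number of members called higher was 1 with the GC trend removed, and 2 to 3 when a library was left out. The number called lower was 0 on library totals alone and after quantile normalization with DESeq2, 2 with the GC trend or both trends removed, 4 at adjusted p alone and 1 to 2 when a library was left out. The summed level was 0.05 on library totals alone and -0.06 as a mean of log2 CPM, and -0.20 to -0.14 with a library left out. Pathway genes called lower were 0 on library totals alone. The direction turned on library totals alone for Idh3g (0.01) and Fh1 (0.10), with the length trend removed for Idh3b (0.04) and Idh3g (0.26), and with both trends removed for Idh3b (0.03), Idh3g (0.28), Ogdh (-0.04) and Mdh2 (0.03). Ratios turned with length, and with both trends, for Suclg1 to Sucla2 (0.36, 0.38), Ogdh to Dlst (-0.43, -0.46), Mdh2 to Mdh1 (0.18, 0.31; GC 0.17) and Fh1 to Mdh2 (-0.62, -0.75). The cause was not tested. Same-numbered samples correlated at 0.27, 0.14, 0.078 and -0.35, and 2 of 8 matched their own number best, so the samples share only a number. The fit with a replicate block called 3 members higher and 1 lower, with 4112 and 3130 genes in all against 4237 and 3058. Same-number differences had one sign in 10 of 13 ratios, which the lack of overlap between ages fixed in advance. Depth limits none of the members, but 4 animals per age cannot give an exact p under 0.0286.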
